A study of Homo sapiens with 9 samples.

Results

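The 50 genes described here encode the machinery that brings proteins into mitochondria, folds them there, trims them and degrades them. They were chosen by gene name, as members of the import complexes of the outer and inner membrane (TOM and TIM), mitochondrial chaperones, processing peptidases and quality-control proteases. The choice was made with earlier results of these data known. All 50 were found by name among the 78894 genes of the tables, and all 50 passed the filter on low counts, which kept 16908 genes.

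Most mitochondrial proteins are encoded in the nucleus and are made in the cytosol. They enter through the TOM channel of the outer membrane and are then handed on, by small TIM chaperones to the membranes, by the TIM22 and TIM23 translocases to the inner membrane and matrix, or by the CHCHD4 oxidation relay to the intermembrane space. In the matrix an HSP70 motor pulls the chain in, peptidases cut off the targeting sequence, HSP60 and its partners fold the product, and proteases such as LONP1 and CLPP remove what fails to fold. In animal cells some of these chaperone and protease genes, HSPD1, HSPE1, HSPA9, LONP1 and CLPP among them, are widely used as reporters of a mitochondrial unfolded protein response.

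Poly-A mRNA was sequenced in Hap1, a near-haploid human cell line that derives from a chronic myeloid leukaemia. SARS2 encodes the mitochondrial seryl-tRNA synthetase, which loads serine onto tRNA for translation inside mitochondria. Every cell line of the study lacked the endogenous SARS2 gene, carried a FLAG-tagged SARS2 copy under doxycycline control that was left off for 6 days, and relied by design on a constitutive myc-tagged copy labelled SARS2+int14-myc, a name the labels do not explain. That copy was the variant R227Q, the variant H448L or wild type (WT), with 3 libraries each, and the study asked how gene expression differs between cells with a variant copy and cells with the WT copy. The sources used here do not state if a line was 1 clone or if replicate libraries were grown as separate cultures, so every p-value rests on library-to-library spread alone, part of which may be technical. Levels are given as CPM, counts per 1000000 counts of the library.

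The libraries were deposited in 2 tables, whose column names begin with SDKYMR (R227Q 1, WT 1 and WT 2) or 4LJFHN (R227Q 2, R227Q 3, H448L 1 to 3 and WT 3). The labels do not say what these codes stand for, and 43.8% of the 16908 genes tested differed between the libraries of the 2 tables. Total counts were 9900892 to 12991050 per library, so 1 count stood for 0.0770 to 0.101 CPM. SARS2 itself had between 6.20 and 8.68 CPM in the 9 libraries and did not pass the test in either variant (log2 fold change 0.18 for R227Q and 0.28 for H448L, edgeR adjusted p = 0.375 and 0.286); the tables do not tell its copies apart. Among markers of other cell types, 2 of 7 haematopoietic markers exceeded 1 CPM in any library, the fetal globins HBG1 and HBG2. HBG2 stood at 46.1 to 67.2 CPM in the 4LJFHN libraries of every genotype and at 0 in the SDKYMR libraries, whereas PTPRC, the general leukocyte marker, reached at most 0.693 CPM. The summed haematopoietic markers were 1.63 to 71.5 CPM in R227Q, 70.0 to 88.7 CPM in H448L and 1.48 to 70.2 CPM in WT, and the summed fibroblast markers, 3 of 5 above 1 CPM, were 23.1 to 66.0, 55.4 to 67.0 and 18.8 to 54.0 CPM in the same order of groups. Epithelial markers (3 of 5 above 1 CPM) summed to 84.8 to 92.2 CPM in R227Q, 79.2 to 89.8 CPM in H448L and 78.0 to 81.5 CPM in WT, and neuronal markers (3 of 4) to 111 to 118, 97.7 to 111 and 124 to 136 CPM. The globin and collagen signal moved with the table, which the fit carries as a term, and its part in the results was not tested. In bulk RNA, fewer cells of a type and less RNA per cell cannot be told apart.

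In R227Q cells 17 of the 50 transcripts fell and 0 rose against WT (fitted folds 0.772 to 0.926), and the fallen transcripts were 12 of the import complexes, 3 chaperones, the peptidase PARL and the oxidoreductase CHCHD4 (edgeR quasi-likelihood test with a table term, Benjamini-Hochberg adjusted p under 0.05 over all genes). That is 34% of the members lower, against 9.91% of all tested genes lower and 7.5% higher (17.4% in either direction). With p under 0.05 before adjustment, 3 members were higher and 21 lower, and DESeq2 and limma-voom also called 0 higher. The log2 fold changes ran from −0.37 (CHCHD4) to 0.13 (SPG7), with 37 of 50 below 0 and a median of −0.087, against a median of 0.00 over all genes. In H448L cells 5 transcripts fell and 0 rose, which is 10% of the members, against 4.99% of all genes lower and 2.97% higher (7.97% in either direction). The median was −0.063 in H448L, with 39 of 50 below 0; before adjustment 15 members were lower and 1 was higher at p under 0.05, and DESeq2 and limma-voom called 0 higher. All 5 that fell in H448L, TIMM17B, GRPEL1, HSPE1, PARL and CHCHD4, were also among the 17 of R227Q, but both comparisons use the same WT libraries. The direct comparison of H448L with R227Q gave 1 call, TOMM40, which was higher in H448L (2% of the members, against 0.0828% of all genes higher, 0.124% lower and 0.207% in either direction).

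The size of these counts depended on a few libraries and on the scaling. For R227Q the number of members lower was 8 without WT 3 and 9 without R227Q 1, 8 within 4LJFHN alone, and 1, CHCHD4, when the table term was left out; for H448L it was 1 without WT 3, 3 without R227Q 1, H448L 2, WT 1 or WT 2, 3 within 4LJFHN alone and 0 without the table term. The R227Q calls lost within 4LJFHN alone were those of TOMM6, TOMM22, TIMM10, TIMM17A, TIMM21, GRPEL1, HSPD1, CLPB and PARL, and the H448L calls lost there were those of GRPEL1 and PARL. In turn, some members without a call passed under at least 1 other setting, YME1L1, STOML2 and IMMP1L in R227Q and TOMM6, TOMM22, TOMM70, DNAJC19 and HSPA9 in H448L. Over all genes 43.1% of the R227Q calls were higher with TMM factors, 32.7% with DESeq2 and 54.0% with upper-quartile factors, and of the H448L calls 37.3% were higher with TMM, 19.5% with DESeq2 and 47.2% with upper-quartile factors. The members' median stayed below 0 under each of these scalings, at −0.096 (DESeq2) and −0.063 (upper-quartile) for R227Q and at −0.074 and −0.045 for H448L.

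**Figure D1:**
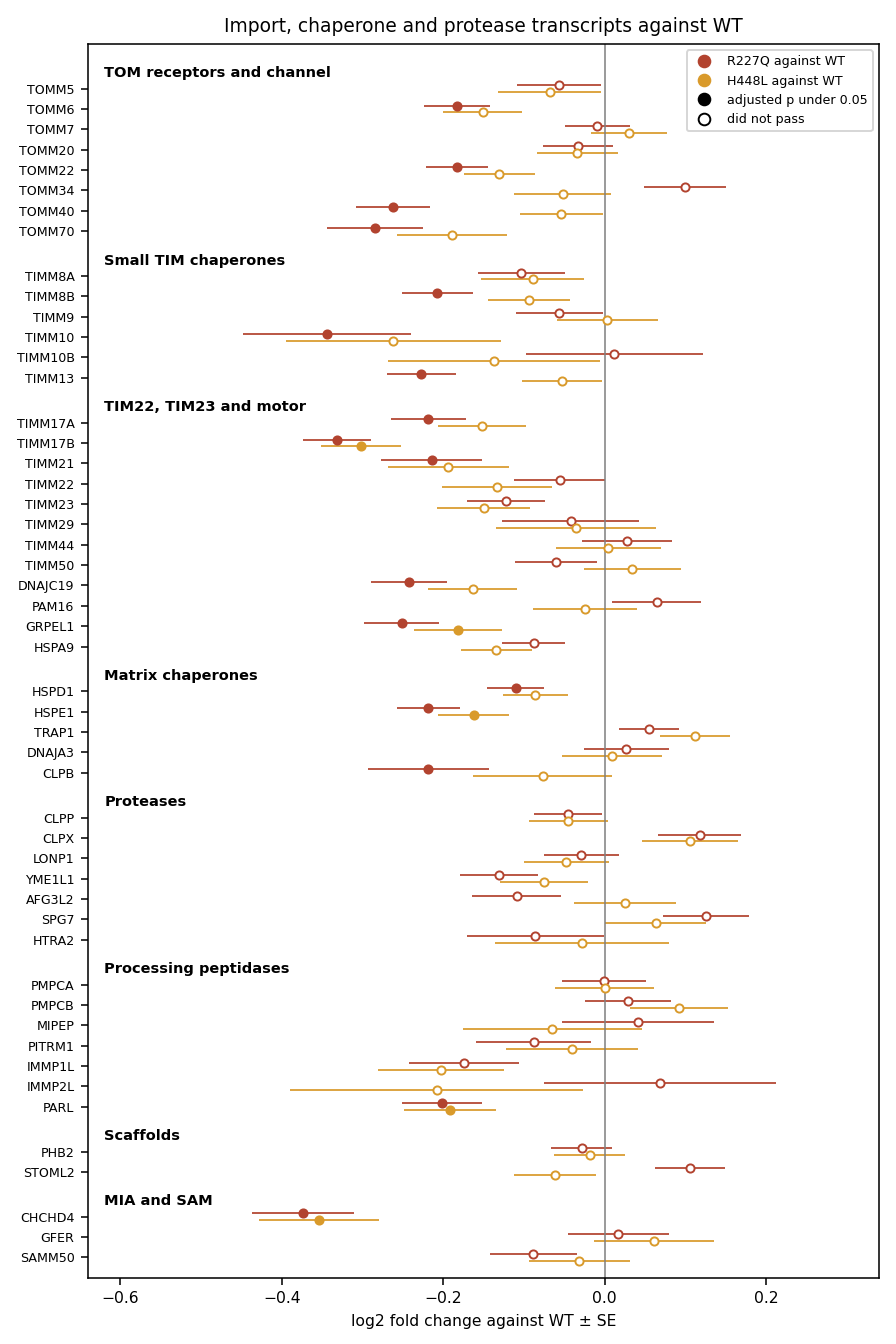
Log2 fold change ± SE against WT (x axis) of each of the 50 transcripts (y axis, grouped by role) in R227Q (red) and H448L (orange), from edgeR fits over 9 libraries, 3 per group; filled points passed at an adjusted p under 0.05. The filled points, 17 for R227Q and 5 for H448L, all lie left of 0.

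The levels were also compared within each table, without a model. In 26 of 50 members (52%) every R227Q library lay below every WT library of its own table, which held for 23.2% of all genes tested, and in 6 members (12%) every R227Q library lay above, against 24.6% of all genes. For H448L, which was set beside WT 3 alone, 22 members (44%) had every library below and 5 (10%) above, against 26.3% and 34.8% of all genes. Gaps between all libraries of the groups, across tables, are given below for single transcripts. The share of all genes with such a gap was not computed. Summed over the 26 transcripts of TOM, the small TIM proteins, TIM22, TIM23 and the motor, the level was 3561, 3457 and 3524 CPM in R227Q 1 to 3, 3635, 3591 and 3594 CPM in H448L 1 to 3, and 3817, 3928 and 3806 CPM in WT 1 to 3. On this sum the 3 groups did not overlap, with R227Q lowest and WT highest. The sum is not adjusted for the table, over which the groups are spread unevenly. Within 4LJFHN the order was the same, with WT 3 as the only WT library. The small TIM part of the sum kept that order. R227Q and H448L overlapped for TOM, at 1382 to 1461 and 1440 to 1474 CPM. They also overlapped for TIM22, TIM23 and the motor, at 1539 to 1620 and 1565 to 1606 CPM. How often other gene sums show such an order was not computed. The sum over all 50 members was 7906, 8003 and 8106 CPM in R227Q, 8284, 8185 and 8258 CPM in H448L, and 8289, 8364 and 8631 CPM in WT, where H448L and WT nearly met and R227Q lay lowest.

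**Figure D2:**
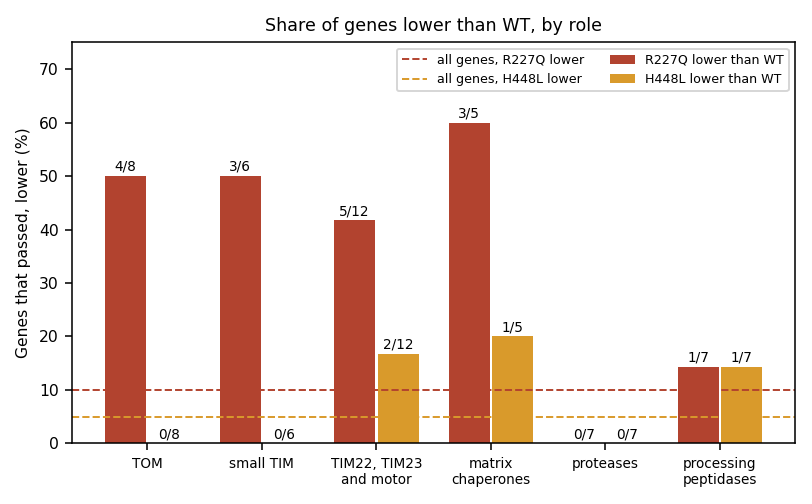
Share of tested transcripts that were lower than WT at an edgeR adjusted p under 0.05 (y axis, percent) for 6 roles (x axis), R227Q left and H448L right, with the counts above the bars; dashed lines mark the shares over all genes, 9.91% for R227Q and 4.99% for H448L. The proteases stand at 0 of 7 in both variants, and 4 of 8 TOM transcripts were lower in R227Q.

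Sequences upstream of the transcripts are shown for 5 windows, because these belong to the member with the most negative change (CHCHD4), to the HSPD1 and HSPE1 pair, which share a control region and both fell in R227Q, to a fallen import receptor (TOMM70), and to a protease that did not pass (LONP1). They are RefSeq windows on GRCh38.p14, from 250 bases before to 50 after a transcript start, and 45 of 50 members had one; CLPP, GRPEL1, TIMM8B, YME1L1 and TOMM5 did not match. Capitals mark matches, on either strand, to 3 of 4 motifs that were searched: the heat shock element core TTCNNGAA, the NRF1 motif GCGCATGCG and the ETS core CCGGAAG. The fourth was the C/EBP-ATF element TGATGCAA, a motif of mitochondrial stress genes. Heat shock and ETS letters can overlap each other, and the NRF1 letters can match both strands at places 1 base apart, which makes 1 longer run.
CHCHD4 (chr3:14124821-14125120, minus strand): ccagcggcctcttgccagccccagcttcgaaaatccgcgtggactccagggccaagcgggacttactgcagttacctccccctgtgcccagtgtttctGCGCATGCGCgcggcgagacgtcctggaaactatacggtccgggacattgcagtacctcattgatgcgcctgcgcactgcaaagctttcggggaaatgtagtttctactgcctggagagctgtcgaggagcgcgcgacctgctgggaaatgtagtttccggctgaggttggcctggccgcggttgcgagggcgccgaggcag
TOMM70 (chr3:100401040-100401339, minus strand): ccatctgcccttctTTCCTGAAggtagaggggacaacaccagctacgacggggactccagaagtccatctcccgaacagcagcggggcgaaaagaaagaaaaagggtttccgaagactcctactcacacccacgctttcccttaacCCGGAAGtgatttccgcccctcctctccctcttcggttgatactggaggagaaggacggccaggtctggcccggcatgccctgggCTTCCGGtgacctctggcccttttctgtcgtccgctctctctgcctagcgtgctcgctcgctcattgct
HSPD1 (chr2:197499791-197500090, minus strand): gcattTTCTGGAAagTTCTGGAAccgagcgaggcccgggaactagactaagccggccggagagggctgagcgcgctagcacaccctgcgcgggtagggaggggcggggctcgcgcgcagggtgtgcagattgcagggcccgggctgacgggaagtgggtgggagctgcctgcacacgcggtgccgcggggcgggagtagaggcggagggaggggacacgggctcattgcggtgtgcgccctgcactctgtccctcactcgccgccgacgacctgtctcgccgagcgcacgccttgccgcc
HSPE1 (chr2:197500129-197500428, plus strand): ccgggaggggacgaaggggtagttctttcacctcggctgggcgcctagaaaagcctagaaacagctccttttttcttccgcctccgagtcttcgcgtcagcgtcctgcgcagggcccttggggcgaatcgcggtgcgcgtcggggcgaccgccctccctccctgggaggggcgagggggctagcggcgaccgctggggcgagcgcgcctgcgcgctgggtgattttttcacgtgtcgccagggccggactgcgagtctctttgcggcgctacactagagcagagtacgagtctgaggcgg
LONP1 (chr19:5720403-5720702, minus strand): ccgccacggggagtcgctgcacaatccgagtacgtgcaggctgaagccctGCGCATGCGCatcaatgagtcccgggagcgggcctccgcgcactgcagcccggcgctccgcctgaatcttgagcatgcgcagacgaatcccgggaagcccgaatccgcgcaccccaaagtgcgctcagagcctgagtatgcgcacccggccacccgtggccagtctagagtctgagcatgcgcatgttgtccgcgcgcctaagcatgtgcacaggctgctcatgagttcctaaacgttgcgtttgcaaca
The HSPD1 window holds 2 heat shock cores, the TOMM70 window 1 heat shock core and 2 ETS cores, the CHCHD4 and LONP1 windows an NRF1 run each, and the HSPE1 window none of the 4 motifs. A second HSPD1 start (chr2:197500225-197500524, minus strand) shares 204 bases with the HSPE1 window and has none of the 4 motifs. A second LONP1 window (chr19:5720097-5720396, minus strand), not shown, holds 1 ETS core and no NRF1 motif. Among the 45 members with a window, 5 had a heat shock core (11.1%, against 9.46% of 27305 genes), 5 an NRF1 motif (11.1%, against 2.34%), 18 an ETS core (40.0%, against 12.2%) and 2 the C/EBP-ATF element (4.44%, against 1.08%). Of the 15 members that fell in R227Q and had a window, the counts were 3, 1, 6 and 0. A match describes letters only and says nothing of binding.

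The TOM complex forms the entry gate, and 4 of its 8 transcripts fell in R227Q, whereas 0 of 8 passed in H448L (edgeR; 3 lower at an unadjusted p under 0.05, with TOMM22 called by DESeq2 and none by limma-voom). Beside this and each role's count below, 9.91% of all genes were lower in R227Q and 4.99% in H448L. TOMM40 forms the channel. It had 122, 177 and 179.9 CPM in R227Q 1 to 3, 202, 199 and 222 CPM in H448L 1 to 3, and 151, 145 and 210.3 CPM in WT 1 to 3. Within SDKYMR the R227Q library lay below both WT libraries, and within 4LJFHN both R227Q libraries lay below WT 3 and below all 3 H448L libraries. The order of H448L above R227Q within 4LJFHN held for 32% of the members and 14.8% of all genes. The log2 fold change was −0.26 ± 0.046 in R227Q (± gives the SE throughout; edgeR adjusted p = 1.2e-04), and it was alike within SDKYMR (−0.28) and 4LJFHN (−0.25), while H448L stood at −0.054 ± 0.052 (0.606). TOMM40 was also the member that differed between the variants, by 0.21 ± 0.045 (H448L over R227Q, edgeR adjusted p = 0.038), a call lost without R227Q 1 (0.20), R227Q 2 (0.20), R227Q 3 (0.23), H448L 2 (0.24), H448L 3 (0.16), WT 1 (0.20) or WT 3 (0.20), and within 4LJFHN alone (0.20). Its R227Q call remained whichever of the 9 libraries was left out.

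TOMM70 and TOMM22 are receptors that bind arriving proteins, TOMM70 those with internal targeting signals. TOMM70 had 63.3, 81.4 and 70.8 CPM in R227Q, 82.8, 86.3 and 77.0 CPM in H448L, and 71.3, 80.3 and 92.8 CPM in WT. R227Q was below WT within each table, although the groups overlapped across tables, and the fall was −0.29 ± 0.059 (edgeR adjusted p = 9.1e-04). TOMM22 had 276, 253 and 253 CPM in R227Q, 264, 262 and 262 CPM in H448L, and 315, 319.9 and 279 CPM in WT, so that all variant libraries were lower than all WT libraries. It fell by 0.18 on the log2 scale in R227Q (edgeR adjusted p = 9.0e-04) and stood at −0.13 ± 0.044 in H448L (0.067). TOMM6, a small subunit that stabilises the channel complex, had 191, 149 and 151 CPM in R227Q, 154, 154 and 151 CPM in H448L, and 219.6, 223 and 164 CPM in WT. It fell by 0.18 in R227Q (edgeR adjusted p = 0.00201) and missed the threshold in H448L at −0.15 ± 0.049 (0.052). The TOMM6 value is uncertain, since all 637 bases of its exons are shared on the same strand with AL365205.1. The calls of TOMM22 (−0.15) and TOMM6 (−0.14) were lost without R227Q 1, and that of TOMM70 (−0.27) without WT 3.

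The remaining TOM transcripts did not pass. TOMM20, the receptor for classical targeting sequences, had 184, 214 and 199.7 CPM in R227Q, 217, 208 and 202 CPM in H448L, and 181, 189 and 213 CPM in WT, groups that overlapped. Its log2 fold changes were −0.034 ± 0.043 and −0.034 ± 0.050 (edgeR adjusted p = 0.663 and 0.759), and its counts were fractional in all 9 libraries, a sign that reads were divided among features. TOMM5, TOMM7 and the cytosolic helper TOMM34 lay between −0.057 and 0.10 in R227Q and between −0.068 and 0.030 in H448L.

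The small TIM proteins escort membrane proteins across the intermembrane space, and 3 of 6 of their transcripts fell in R227Q, against 0 of 6 in H448L (edgeR; also 0 at an unadjusted p under 0.05 and 0 by DESeq2 and limma-voom). TIMM13, partner of TIMM8 proteins, had 244, 201 and 206 CPM in R227Q, 228, 225 and 249 CPM in H448L, and 270.2, 280.1 and 244 CPM in WT. Within each table R227Q was below WT, and the change was −0.23 ± 0.043 (edgeR adjusted p = 3.2e-04), while the H448L libraries lay on both sides of WT 3 (−0.053 ± 0.050, 0.599). H448L exceeded R227Q by 0.17 ± 0.044 for TIMM13, which did not pass (edgeR adjusted p = 0.0995; called by DESeq2). TIMM8B had 149, 163 and 159.7 CPM in R227Q, 169.9, 175 and 187 CPM in H448L, and 162, 172 and 189 CPM in WT. R227Q was lower than WT in both tables, and the fall was −0.21 ± 0.044 (edgeR adjusted p = 0.00117), against −0.094 ± 0.051 in H448L (0.297). TIMM10, which pairs with TIMM9 in the carrier chaperone, fell by 0.34 in R227Q (SE 0.10, edgeR adjusted p = 0.020) at a level of 10.9 to 19.5 CPM, against 15.1 to 28.1 CPM in WT, while TIMM9 stood at −0.056 ± 0.054 (0.531). TIMM8A (−0.10) and TIMM10B (0.012) did not pass either. All 3 calls were lost without WT 3 (TIMM13 −0.18, TIMM8B −0.18, TIMM10 −0.40), and that of TIMM10 also without R227Q 1 (−0.26), R227Q 2 (−0.29) or WT 2 (−0.26), with DESeq2 (−0.35) and within 4LJFHN alone (−0.26). TIMM13 shares 257 exon bases with LMNB2 on its strand, and TIMM8B shares 377 with NKAPD1 and SDHD on the other strand, so both values are uncertain.

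**Figure D3:**
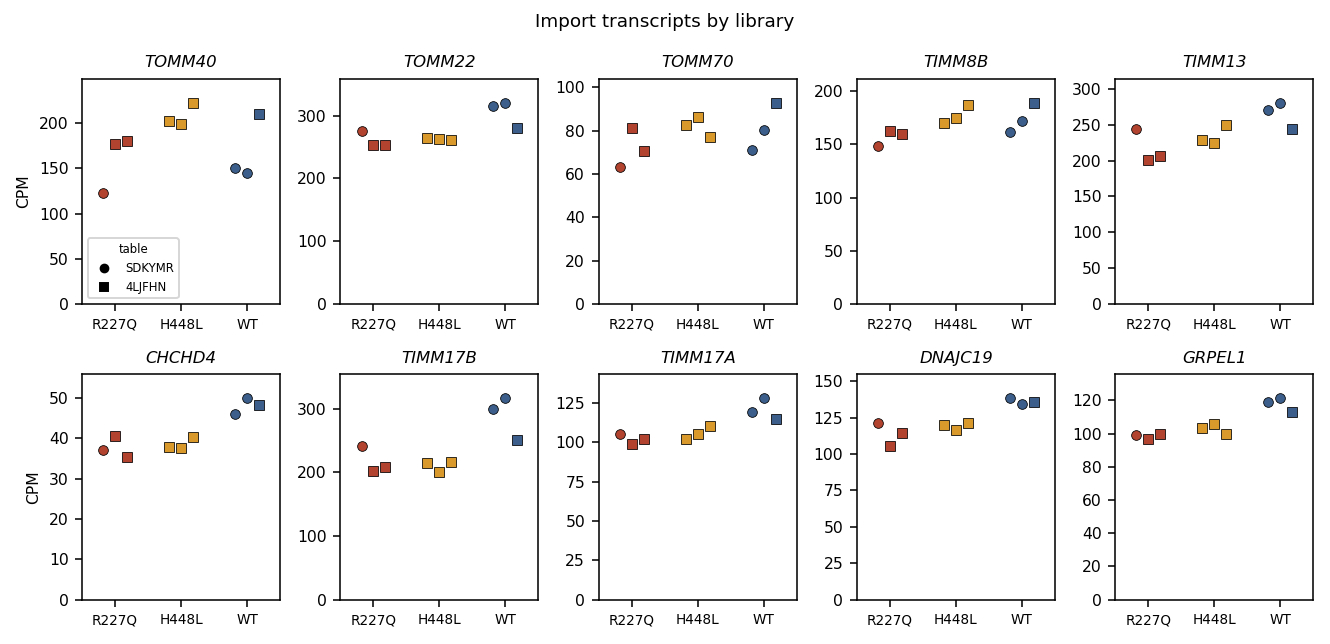
CPM (y axis, from 0) of 10 import transcripts in every library, R227Q, H448L and WT from left to right; circles are table SDKYMR and squares 4LJFHN. TOMM22, CHCHD4, TIMM17B, TIMM17A, DNAJC19 and GRPEL1 are lower in all 6 variant libraries than in all 3 WT libraries, whereas TOMM40 shows the gap between tables and H448L near the WT square. The share of all genes with such an order across tables was not computed, and the order is not adjusted for the table.

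The TIM23 translocase and its motor carry proteins to the matrix, and TIM22 inserts carriers into the inner membrane. In R227Q 5 of these 12 transcripts fell (41.7%, against 9.91% of all genes), and in H448L 2 (16.7%, against 4.99%). TIMM17B, one of a pair of alternative channel subunits of TIM23, had 242, 202 and 208 CPM in R227Q, 214, 199.7 and 215 CPM in H448L, and 299.5, 316 and 251 CPM in WT. All 6 variant libraries lay below all 3 WT libraries. The falls were −0.33 ± 0.042 in R227Q (edgeR adjusted p = 1.44e-06) and −0.30 ± 0.0495 in H448L (1.5e-04), and both calls remained without any 1 of the 9 libraries. Its paralog TIMM17A had 105, 99.1 and 102 CPM in R227Q, 102, 105 and 110.1 CPM in H448L, and 119, 128 and 115 CPM in WT, again with no overlap. It fell by 0.22 in R227Q (edgeR adjusted p = 0.00126) and stood at −0.15 ± 0.055 in H448L (0.087).

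The motor is HSPA9, the mitochondrial HSP70, with its cofactors. GRPEL1, the exchange factor that releases ADP from HSPA9, had 99.3, 96.4 and 99.5 CPM in R227Q, 103, 106 and 99.5 CPM in H448L, and 119, 121 and 113 CPM in WT. No variant library reached the lowest WT library, and the falls were −0.25 ± 0.046 in R227Q (edgeR adjusted p = 2.3e-04) and −0.18 ± 0.054 in H448L (0.034). DNAJC19, a J-protein bound to the translocase, had 122, 105 and 115 CPM in R227Q, 119.7, 117 and 122 CPM in H448L, and 138, 134 and 136 CPM in WT. It fell by 0.24 in R227Q (SE 0.0475, edgeR adjusted p = 4.7e-04) and stood at −0.16 ± 0.0555 in H448L (0.067), and 9 pseudogenes named after it together held up to 11 CPM. HSPA9 itself had 479, 545 and 586 CPM in R227Q, 558, 556 and 542 CPM in H448L, and 503, 512 and 596 CPM in WT, and followed the table more than the genotype. Its changes of −0.088 ± 0.0385 and −0.13 ± 0.044 did not pass (edgeR adjusted p = 0.116 and 0.0595), although DESeq2 and limma-voom called the H448L value.

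TIMM23, the channel-forming subunit, had 93.8, 72.6 and 76.9 CPM in R227Q, 73.9, 73.0 and 74.4 CPM in H448L, and 100.3, 105 and 80.0 CPM in WT. Each variant library was below the WT libraries of its table, yet −0.12 ± 0.048 and −0.15 ± 0.058 did not pass (edgeR adjusted p = 0.0781 and 0.114). A near-identical copy, TIMM23B, had 1.56 to 3.52 CPM, so the split of reads between the 2 genes is uncertain. TIMM21, which links the translocase to the respiratory chain, fell by 0.21 in R227Q (SE 0.062, edgeR adjusted p = 0.016) and stood at −0.19 ± 0.075 in H448L (0.112). TIMM22, TIMM29, TIMM44, TIMM50 and PAM16 ran from −0.060 to 0.064 in R227Q and from −0.13 to 0.034 in H448L, and none passed. In this group the R227Q calls of TIMM17A (−0.20) and TIMM21 (−0.25) were lost without R227Q 1, and those of TIMM21 (−0.19) and DNAJC19 (−0.18) without WT 3. The H448L call of GRPEL1 was lost without R227Q 1 (−0.16), R227Q 3 (−0.17), H448L 3 (−0.16), WT 1 (−0.18), WT 2 (−0.18) or WT 3 (−0.23), with DESeq2 (−0.19) and with upper-quartile factors (−0.16).

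The chaperones, 4 of the matrix and CLPB of the intermembrane space, had 3 of 5 transcripts lower in R227Q and 1 of 5 lower in H448L. Over all genes 9.91% and 4.99% were lower. HSPE1, the HSP10 lid of the folding chamber, had 620.3, 764 and 793 CPM in R227Q, 822.5, 798 and 855 CPM in H448L, and 707, 678 and 929.8 CPM in WT. The tables differed so much that the groups overlapped (SDKYMR below 4LJFHN by 0.33 on the log2 scale), but within each table every variant library was below every WT library. The falls were −0.22 ± 0.039 in R227Q (edgeR adjusted p = 1.5e-04) and −0.16 ± 0.044 in H448L (0.020). Without the table term the H448L value turned to 0.044, without WT 3 it was −0.099 and without H448L 2 −0.14, and neither leave-out nor upper-quartile factors (−0.14) kept the call; the R227Q call was lost without WT 3 (−0.17). HSPD1, the HSP60 chamber itself, had 1202, 1189 and 1178 CPM in R227Q, 1228, 1206 and 1241 CPM in H448L, and 1272, 1239 and 1303 CPM in WT. All R227Q libraries lay below all WT libraries, by a small margin: the fall was −0.11 ± 0.035 in R227Q (edgeR adjusted p = 0.027), and −0.086 ± 0.040 in H448L did not pass (0.210). That call was lost without R227Q 1 (−0.15), R227Q 2 (−0.10), R227Q 3 (−0.10), WT 1 (−0.11) or WT 3 (−0.074), and with upper-quartile factors (−0.087).

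HSPD1 and HSPE1 lie on opposite strands of chromosome 2, and the HSPE1 model lies inside that of HSPD1 (HSPD1 197486581 to 197516737 on the minus strand, HSPE1 197499994 to 197503457 on the plus strand, GENCODE models on GRCh38). Their exons overlap by 281 bases, so part of their reads cannot be told apart without strand. They also have 19 and 26 pseudogenes named after them, which together held up to 37.6 and 16.9 CPM. CLPB, a disaggregase of the intermembrane space, fell by 0.22 in R227Q (SE 0.075, edgeR adjusted p = 0.042) at 21.4 to 25.7 CPM, against 23.6 to 28.0 CPM in WT, and its call was lost without R227Q 1 (−0.23), R227Q 3 (−0.18), H448L 2 (−0.22), WT 1 (−0.20) or WT 3 (−0.21), with DESeq2 (−0.23), with upper-quartile factors (−0.20) and with every gene kept (−0.22). TRAP1, the mitochondrial HSP90, stood at 0.055 ± 0.037 in R227Q and 0.11 ± 0.043 in H448L, and the HSP70 partner DNAJA3 at 0.027 and 0.0086; none passed (edgeR adjusted p = 0.346, 0.114, 0.790 and 0.959).

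**Figure D4:**
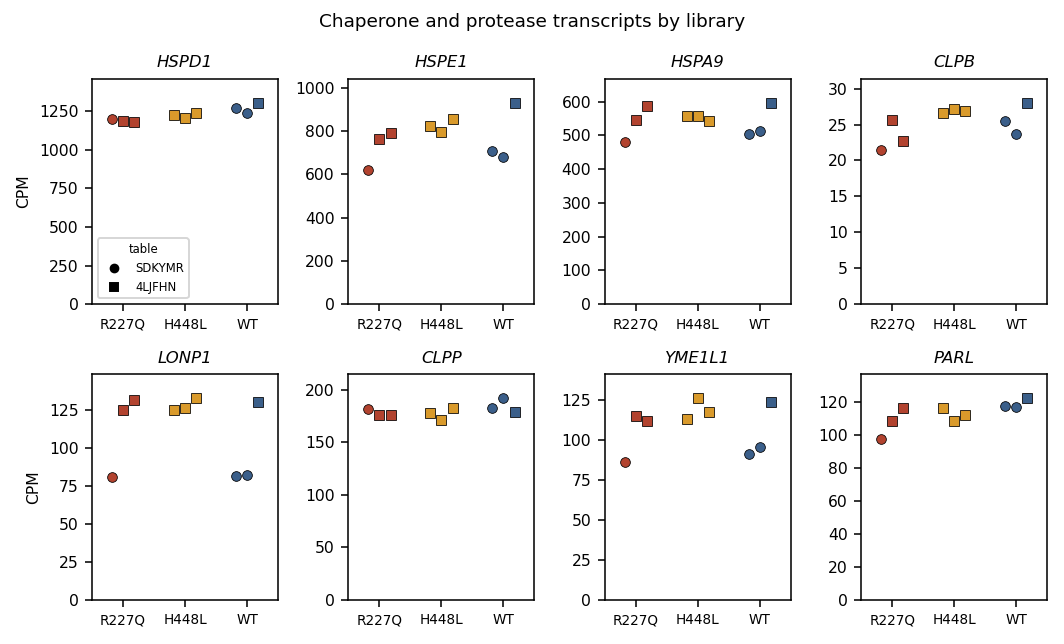
CPM (y axis, from 0) of 8 chaperone and protease transcripts in every library, R227Q, H448L and WT from left to right; circles are table SDKYMR and squares 4LJFHN. HSPD1 is lower in all 3 R227Q libraries than in all 3 WT libraries, while LONP1 differs between circles and squares and hardly between genotypes (−0.029 for R227Q and −0.048 for H448L on the log2 scale).

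Of the 7 proteases, 0 passed in either direction in R227Q or in H448L by edgeR, DESeq2 or limma-voom, which for so few genes is near the shares over all genes (9.91% and 4.99% lower). At an unadjusted p under 0.05, 2 were higher (CLPX and SPG7) and 1 lower (YME1L1) in R227Q, and 0 in H448L. LONP1, the main matrix protease, had 80.4, 125 and 131 CPM in R227Q, 125, 126 and 132 CPM in H448L, and 81.5, 81.6 and 129.8 CPM in WT. The libraries split by table (SDKYMR below 4LJFHN by 0.62 on the log2 scale) and hardly by genotype, with −0.029 ± 0.047 for R227Q and −0.048 ± 0.053 for H448L (edgeR adjusted p = 0.734 and 0.661). CLPP, the peptidase of the ClpXP complex, had 181, 176 and 176 CPM in R227Q, 177, 171 and 183 CPM in H448L, and 183, 192 and 179 CPM in WT, with −0.045 ± 0.042 and −0.045 ± 0.049 (0.516 and 0.657). Its unfoldase CLPX stood at 0.12 ± 0.051 in R227Q and 0.11 ± 0.059 in H448L (edgeR adjusted p = 0.117 and 0.313). YME1L1, the protease facing the intermembrane space, was close to the threshold in R227Q at −0.13 ± 0.048 (edgeR adjusted p = 0.0574), and edgeR called it lower with RLE factors and without H448L 3. The matrix-facing pair AFG3L2 (−0.11) and SPG7 (0.13) had opposite signs in R227Q, and HTRA2, which guards the intermembrane space, stood at −0.086; none passed.

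Among processing peptidases 1 of 7 fell in each variant, and it was PARL, the rhomboid protease that cuts PINK1 and other inner membrane proteins. For so few genes 1 call is near the shares over all genes (9.91% and 4.99% lower). PARL had 97.4, 109 and 116 CPM in R227Q, 116, 108 and 112 CPM in H448L, and 118, 117 and 122 CPM in WT. All variant libraries lay below all WT libraries, though 2 of them by less than 1 CPM, and the falls were −0.20 ± 0.049 in R227Q (edgeR adjusted p = 0.00422) and −0.19 ± 0.057 in H448L (0.035). The R227Q value was −0.13 without R227Q 1 and then lost its call. The H448L call was lost without R227Q 1 (−0.14), R227Q 3 (−0.17), H448L 2 (−0.16), WT 1 (−0.18), WT 2 (−0.19) or WT 3 (−0.29), and with upper-quartile factors (−0.17). PARL shares 1071 of its 2268 exon bases with AC131160.1 on the same strand, so its value is uncertain. The processing peptidase subunits PMPCA (−0.0011 and −0.00028 for R227Q and H448L) and PMPCB (0.029 and 0.092), the intermediate peptidase MIPEP, the peptide-degrading PITRM1 and the inner membrane peptidases IMMP1L and IMMP2L did not pass. IMMP1L came closest, at −0.17 ± 0.068 and −0.20 ± 0.078 (edgeR adjusted p = 0.0746 and 0.114).

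The oxidation relay and the sorting machinery of the outer membrane gave 1 call of 3 in each variant, CHCHD4, which encodes the oxidoreductase MIA40 that locks small cysteine-rich proteins, the small TIM proteins among them, in the intermembrane space. The shares over all genes were 9.91% lower in R227Q and 4.99% in H448L, and 3 genes are too few to set beside them. CHCHD4 lies on chromosome 3, 14112077 to 14124870 on the minus strand. It had 37.0, 40.5 and 35.3 CPM in R227Q, 37.9, 37.7 and 40.2 CPM in H448L, and 46.0, 49.9 and 48.3 CPM in WT. All 6 variant libraries were lower than all 3 WT libraries. The fall was −0.37 ± 0.063 in R227Q (edgeR adjusted p = 8.2e-05; −0.38 within SDKYMR, −0.36 within 4LJFHN) and −0.35 ± 0.074 in H448L (0.00245), the most negative of the 50 members in both comparisons. Its R227Q call was the one that remained without the table term, and it remained without any 1 library, while the H448L call was lost without WT 3 (−0.37). GFER, the partner that reoxidises CHCHD4, stood at 0.017 ± 0.062 and 0.061 ± 0.075, and SAMM50, which inserts barrel proteins such as TOMM40 into the outer membrane, at −0.088 ± 0.054 and −0.032 ± 0.062; none passed (edgeR adjusted p = 0.894, 0.701, 0.291 and 0.829). The inner membrane scaffolds PHB2 (−0.028 and −0.019) and STOML2 (0.11 and −0.062) did not pass either. H448L was below R227Q for STOML2 by 0.17 on the log2 scale (SE 0.043), which missed the threshold with edgeR (adjusted p = 0.114) and was called by DESeq2.

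Many members differed between the libraries of the 2 tables as well as between genotypes. Of the 50 transcripts, 33 differed between the tables, 19 higher and 14 lower in SDKYMR, against 43.8% of all genes in either direction. LONP1 (−0.62, SDKYMR minus 4LJFHN), TOMM40 (−0.48) and HSPE1 (−0.33) were lower in SDKYMR, while TIMM10 (0.74), HTRA2 (0.70) and TOMM6 (0.44) were higher (edgeR adjusted p between 3.7e-12 and 9.4e-07). CHCHD4 (0.030) and HSPD1 (0.035), members that fell in R227Q, did not differ detectably between tables (edgeR adjusted p = 0.738 and 0.447). Nor did TIMM8B (−0.097), GRPEL1 (0.10), CLPB (−0.13) and PARL (−0.079), which fell too (edgeR adjusted p = 0.0753, 0.0713, 0.166 and 0.201).

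**Figure D5:**
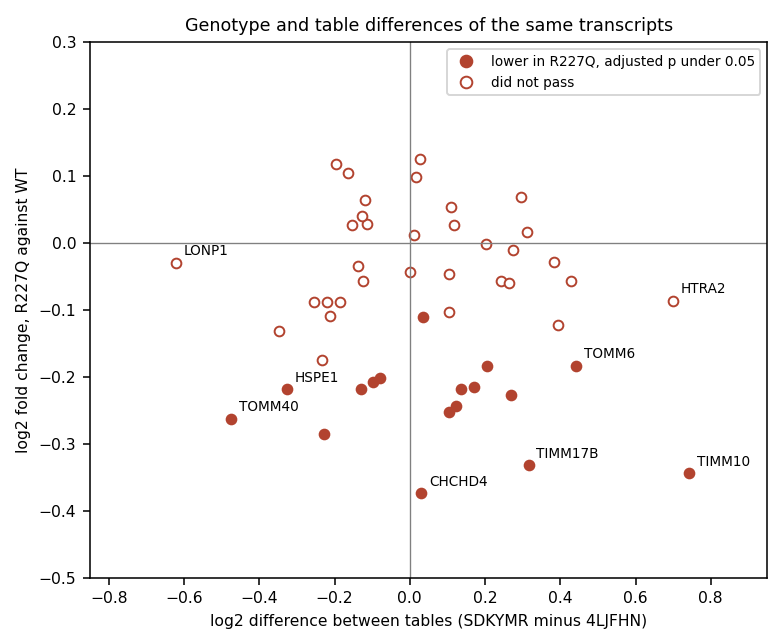
Log2 fold change of R227Q against WT (y axis) against the log2 difference between tables, SDKYMR minus 4LJFHN (x axis), for the 50 transcripts, both from 1 edgeR fit; filled points fell in R227Q at an adjusted p under 0.05. The 17 filled points spread from −0.48 (TOMM40) to 0.74 (TIMM10) on the table axis.

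Further genes of import and quality control were counted from a list of other pathway members. The name AFG3L1P stands for 2 entries. The counts use the entry at 0.935 to 1.89 CPM and leave out the other, at 18.4 to 25.0 CPM. Of the 26 names listed, among which PHB is an older name of PHB1, 23 were tested, and 3 fell in R227Q while 0 rose (13% lower, against 9.91% of all genes): MTX2, an outer membrane import factor (−0.18 ± 0.052), PHB1, partner of PHB2 (−0.15 ± 0.044), and LACTB, a filament-forming protease (−0.28 ± 0.075; edgeR adjusted p = 0.016, 0.021 and 0.00872). Only PHB1 was also called by DESeq2. All 3 calls were lost without R227Q 1 (MTX2 −0.23, PHB1 −0.11, LACTB −0.26) or WT 3 (−0.14, −0.19 and −0.30), and PHB1 also without R227Q 2 (−0.14), WT 1 (−0.14) or WT 2 (−0.14) and with upper-quartile factors (−0.12). They were also lost within 4LJFHN alone (MTX2 −0.23, PHB1 −0.11, LACTB −0.26) and without the table term (MTX2 −0.31, PHB1 −0.078, LACTB −0.28). In H448L 0 of 23 passed with edgeR, DESeq2 or limma-voom (unadjusted p under 0.05 for 1 higher and 0 lower), against 7.97% of all genes in either direction by edgeR. Between H448L and R227Q 0 of 23 passed (1 higher and 0 lower unadjusted), against 0.207% of all genes. For so few genes these counts are near the shares over all genes. OMA1, the stress-activated inner membrane protease, stood at −0.21 ± 0.13 in R227Q and −0.16 ± 0.16 in H448L (edgeR adjusted p = 0.288 and 0.629).

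Transcription factors of the stress responses were read beside these genes. ATF5, which is proposed to drive the mitochondrial unfolded protein response in mammals, was higher in R227Q by 0.26 ± 0.071 (edgeR adjusted p = 0.00933) and stood at 0.22 ± 0.081 in H448L (0.0967); its R227Q call was lost without R227Q 1 (0.27) or WT 3 (0.26), with DESeq2 (0.25), within 4LJFHN alone (0.26) and without the table term (0.35). DDIT3, which encodes CHOP, was higher by 0.78 ± 0.065 in R227Q and 0.65 ± 0.082 in H448L (edgeR adjusted p = 8.4e-10 and 4.2e-06), calls lost without the table term (0.55 and 0.14) and under no other setting tried. ATF4 was higher in R227Q by 0.13 ± 0.041 (edgeR adjusted p = 0.027), a call lost without R227Q 1 (0.12), R227Q 2 (0.12), WT 1 (0.10) or WT 3 (0.14), with DESeq2 (0.12) or within 4LJFHN alone (0.12). It turned to −0.043 without the table term, and stood at 0.13 ± 0.048 in H448L (0.106). HSF1, the cytosolic heat shock factor, stood at 0.014 ± 0.060 and −0.0095 ± 0.076 (edgeR adjusted p = 0.908 and 0.964). In the same libraries HSPD1, HSPE1, HSPA9, LONP1 and CLPP, the reporters named at the outset, had negative log2 fold changes in both variants. So had 37 of the 50 members in R227Q and 39 in H448L. Of these reporters, HSPD1 and HSPE1 in R227Q and HSPE1 in H448L passed as lower, the last turning to 0.044 without the table term. LONP1 (−0.029 and −0.048) and CLPP (−0.045 and −0.045) lay near 0. Positive in both variants were CLPX (0.12 and 0.11), TRAP1 (0.055 and 0.11), SPG7 (0.13 and 0.063) and DNAJA3 (0.027 and 0.0086). So were TIMM44 (0.028 and 0.0045), PMPCB (0.029 and 0.092) and GFER (0.017 and 0.061), and none of these passed.

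Annotation limits some of these values. Of the 50 members 11 share exon bases with another gene on the same strand and 26 with one on the opposite strand, 21 have pseudogenes named after them, and the sources used here do not state whether counting used strand. Counts of TOMM20 and HSPD1 were fractional in all 9 libraries and those of 10 members in none.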

How the data were processed

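The authors deposited 2 tables, of 3 and 6 libraries, with an estimated count and a CPM value per gene and library, and GRCh38 is the build in the submitters' processing notes. The sources used here name no aligner, counter, annotation or strand setting. Counts were rounded to whole numbers (70.4% to 72.5% of those above 0 were already whole), 92 spike-in entries were left out, and the deposited CPM matched count over total. Genes kept by filterByExpr were fitted with edgeR 4.0.16 (quasi-likelihood, TMM factors, group and deposited table as terms, 9 libraries, 5 residual degrees of freedom, R 4.3.3), and p-values were adjusted over 16908 genes. The fit was tested on simulated data that held no table difference and had changes in R227Q alone. That test therefore could not check how the fit handles the tables. SE is the log2 fold change over the root of the F statistic. Differences within a table are of log2 CPM with a prior count of 2. Alternatives included DESeq2 1.42.0 and limma 3.58.1. Values in every library are given for members called in a comparison (the 12 smallest p in each) and for HSPD1, HSPE1, HSPA9, LONP1, CLPP, TOMM20 and TIMM23; other members are given by fold change or range. OMA1 was named after its values were seen. The members and lists were chosen with earlier results of these data known. Depth limits precision: 9900892 to 12991050 counts per library.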

Additional observations from a re-analysis of the deposited data

Results flagged for a closer look

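TOMM40 was flagged because the 2 variants' differences from WT differed from each other by a test of that difference: H448L exceeded R227Q by 0.21 on the log2 scale (edgeR adjusted p = 0.038). The call was lost in 7 of the fits with 1 library left out. All 3 H448L libraries lay above all 3 R227Q libraries, but R227Q 1 belonged to SDKYMR, where TOMM40 was lower by 0.48. Within 4LJFHN every H448L library lay above both R227Q libraries, which held for 32% of the members and 14.8% of all genes.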

How the results depend on the processing

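The number of members lower in R227Q, 17, was 1 without the table term, 8 within 4LJFHN alone and 8 to 18 when 1 library was left out; the number higher, 0, was 1 with upper-quartile factors (STOML2) and 0 to 1 with 1 library left out. The number lower in H448L, 5, was 2 with upper-quartile factors, 8 with every gene kept, 0 without the table term, 3 within 4LJFHN alone and 1 to 7 with 1 library left out, and the number higher was 0 throughout. Between H448L and R227Q the number higher, 1, was 2 with DESeq2, 2 with the replicate block, 0 without the table term, 0 within 4LJFHN alone and 0 to 1 with 1 library left out; the number lower, 0, was 1 with DESeq2, 1 with every gene kept and 0 to 1 with 1 library left out. HSPE1 in H448L turned to 0.044 without the table term. The cause of these changes was not tested, except that leaving out libraries leaves fewer samples. Over 414 refitted values of called members, 320 kept their call, 93 lost it and 1 turned.

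Replicate numbers did not pair the samples: same-numbered R227Q and WT libraries correlated at 0.66, −0.56 and 0.66, where numbers 1 and 3 share a table and 2 does not, and at −0.40, 0.12 and −0.38 once the table was removed, and a library was closest to its own number in 5 of 18 checks. With the replicate block 16 members were lower in R227Q, 4 lower in H448L and 2 higher in H448L than in R227Q; the calls of TIMM10 in R227Q (−0.23) and of GRPEL1 (−0.19) and PARL (−0.20) in H448L were lost.

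Over all genes, R227Q gave 1268 higher and 1676 lower, against 506 and 1040 with DESeq2, 165 and 147 without the table term, 483 and 655 within 4LJFHN alone, 534 and 744 without R227Q 1 and 404 and 689 without WT 3. H448L gave 503 and 844, against 143 and 590 with DESeq2, 76 and 71 without the table term, 292 and 442 within 4LJFHN alone and 86 and 167 without WT 3.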
